A study of Cavia porcellus with 44 samples.

Results

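The liver transcriptome was followed in female Hartley guinea pigs that were moved from a high fat feed to a low fat feed while vitamin C (vitC) stayed low. The comparison held 16 of the 44 animals whose livers were sequenced, and they were taken by diet label alone and not by any measured value. For HFL/LFL, HFL/LFH and HFL/HFH the study sequenced a random selection of the animals in the arm, and for the other groups every animal. All 16 ate a high fat, low vitC feed for 16 weeks. Thereafter 10 of them stayed on that feed (HFL/HFL, labelled as NASH, non-alcoholic steatohepatitis) and 6 were given a low fat, low vitC feed (HFL/LFL, labelled as NAFLD, non-alcoholic fatty liver disease) until week 32. Animals were randomised by body weight before the switch, the change of feed was gradual, and HFL/LFL was pair fed to HFL/HFL. The low fat feed also lacked the cholesterol and sucrose of the high fat feed. By the study's diet table it further held more alfalfa, fibre and starch and less energy by weight. The withdrawal of fat, of cholesterol and of sucrose and these other differences cannot be told apart. Animals killed at the switch were not analysed here, so a return from a more severe state and a halt of further progression cannot be told apart either. Further groups served for comparison. These were the same switch at high vitC, with HFL/LFH (low fat, high vitC after week 16, n = 6) against HFL/HFH (high fat, high vitC after week 16, n = 6), and LFH (low fat, high vitC throughout, n = 8). The remaining group, HFH (high fat, high vitC throughout, n = 8), entered the model fit and is drawn in 1 plot, but was compared with no other group. RNA was poly(A) selected from the snap frozen left lateral lobe after a partial overnight fast. The animals were killed over several days, with day and hour randomised in blocks within each group, and since the labels give neither, their part in any difference was not tested.

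The guinea pig lacks a working gulonolactone oxidase, the last enzyme of vitC synthesis, so its tissue vitC is set by the feed. VitC is a cofactor of the prolyl and lysyl hydroxylases that mature collagen and of other dioxygenases. Dietary cholesterol represses hepatic sterol synthesis through the sterol regulatory element binding proteins, and its oxysterol products activate the liver X receptors, which induce exporters such as ABCG1. In steatohepatitis the liver gains lipid-associated macrophages that carry TREM2, a lipid-sensing receptor, together with matrix-producing stellate cells and a ductular reaction of keratin-positive biliary cells.

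The deposited table held 21469977 to 26759845 counts per animal in HFL/LFL and 21833186 to 30040014 in HFL/HFL, over 11967 gene symbols taken from human orthologues. Levels are given as CPM, counts scaled to a common library size, which are comparable between animals for one gene but not between genes, as they are not scaled to length. A group is described by its lowest, median and highest animal. Differences are log2 fold changes ± SE of HFL/LFL over HFL/HFL (positive is higher after the switch) from edgeR's quasi-likelihood test, with p-values adjusted over 7750 genes by the Benjamini-Hochberg method, and a gene was taken to have changed at an adjusted p under 0.05. By that rule 37.8% of the genes tested changed, 18.1% being higher and 19.7% lower in HFL/LFL, and the median log2 fold change of all genes was -0.03. A member's count in the lists below is to be read against those shares. The CPM of the 2 groups did not overlap for 767 genes (9.90%), 302 of them higher (3.90%) and 465 lower (6.0%) in HFL/LFL. Changes of at least 1 on the log2 scale were unevenly divided, with 272 genes higher (3.51%) and 689 lower (8.89%). In whole liver, fewer cells of a type and less RNA per cell cannot be told apart.

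Several of the widest shifts concerned genes at low CPM on one of the feeds, though not CYP3A4.1. TXK, a TEC family tyrosine kinase, lay between 17.4 and 149 CPM in HFL/LFL (median 62.9) and between 1.56 and 8.56 CPM in HFL/HFL (median 5.46) (log2 fold change 3.70 ± 0.42, adjusted p = 4.09e-09). ADRA1A, an alpha-1 adrenergic receptor that drives glycogen breakdown in hepatocytes, had a median of 73.9 CPM in HFL/LFL (16.5 to 146) and of 3.11 CPM in HFL/HFL (0 to 10.8) (log2 fold change 4.39 ± 0.61, adjusted p = 2.58e-07). CYP3A4.1, the second row named CYP3A4 and one that shares its counts with 4 further CYP3A symbols, ranged from 1309.7 to 3644 CPM (median 2909) in HFL/LFL and from 197 to 608 CPM (median 379.6) in HFL/HFL (log2 fold change 2.77 ± 0.32, adjusted p = 4.89e-09). These genes were higher in each HFL/LFL animal than in any HFL/HFL animal. The first row named CYP3A4, likewise shared between symbols of the family, did not pass the test (0.57 ± 0.28, adjusted p = 0.108). In the other direction TMEM213, a small membrane protein, lay between 0.916 and 4.91 CPM in HFL/LFL (median 1.45) and between 37.7 and 98.5 CPM in HFL/HFL (median 63.1) (log2 fold change -4.91 ± 0.57, adjusted p = 5.73e-09). ACHE, acetylcholinesterase, had a median of 0.395 CPM in HFL/LFL (0 to 0.509) and of 6.97 CPM in HFL/HFL (2.89 to 19.3) (log2 fold change -4.90 ± 0.75, adjusted p = 1.91e-06). MC1R, the melanocortin 1 receptor, shared its counts with an unnamed row and ranged from 0.551 to 2.57 CPM (median 1.02) in HFL/LFL and from 10.6 to 24.1 CPM (median 16.6) in HFL/HFL (log2 fold change -3.78 ± 0.41, adjusted p = 1.89e-09). None of the 3 overlapped between the groups. A second row named CCL2, CCL2.1, had no count in any HFL/LFL animal and ranged from 0.418 to 4.06 CPM in HFL/HFL, at least 9.99-fold lower in HFL/LFL when the group is set at the floor of 3 counts per animal.

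Among genes outside every list, those with the smallest p-values mostly fell. CD276, an immune checkpoint ligand of the B7 family, lay between 34.6 and 52.2 CPM in HFL/LFL (median 44.7) and between 144 and 222 CPM in HFL/HFL (median 167) (log2 fold change -1.997 ± 0.13, adjusted p = 5.78e-15). TPM1, the actin filament protein tropomyosin 1, had a median of 273 CPM in HFL/LFL (219 to 332) and of 935 CPM in HFL/HFL (717 to 1166) (log2 fold change -1.80 ± 0.13, adjusted p = 1.33e-13). ANXA2, a calcium-dependent membrane-binding annexin, ranged from 88.7 to 183 CPM (median 159) in HFL/LFL and from 552 to 782 CPM (median 649) in HFL/HFL (log2 fold change -2.15 ± 0.19, adjusted p = 2.54e-11). The lowest HFL/HFL animal was above the highest HFL/LFL animal for each. LAX1, an adaptor of lymphocyte receptor signalling, changed by -2.99 ± 0.23, adjusted p = 6.88e-13, and PDLIM1, an actin-associated LIM protein, by -1.81 ± 0.16, adjusted p = 1.53e-11. CUTA went the other way and lay between 113 and 147 CPM in HFL/LFL (median 123) and between 64.4 and 84.1 CPM in HFL/HFL (median 76.8) (log2 fold change 0.71 ± 0.07, adjusted p = 6.01e-11).

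**Figure D1:**
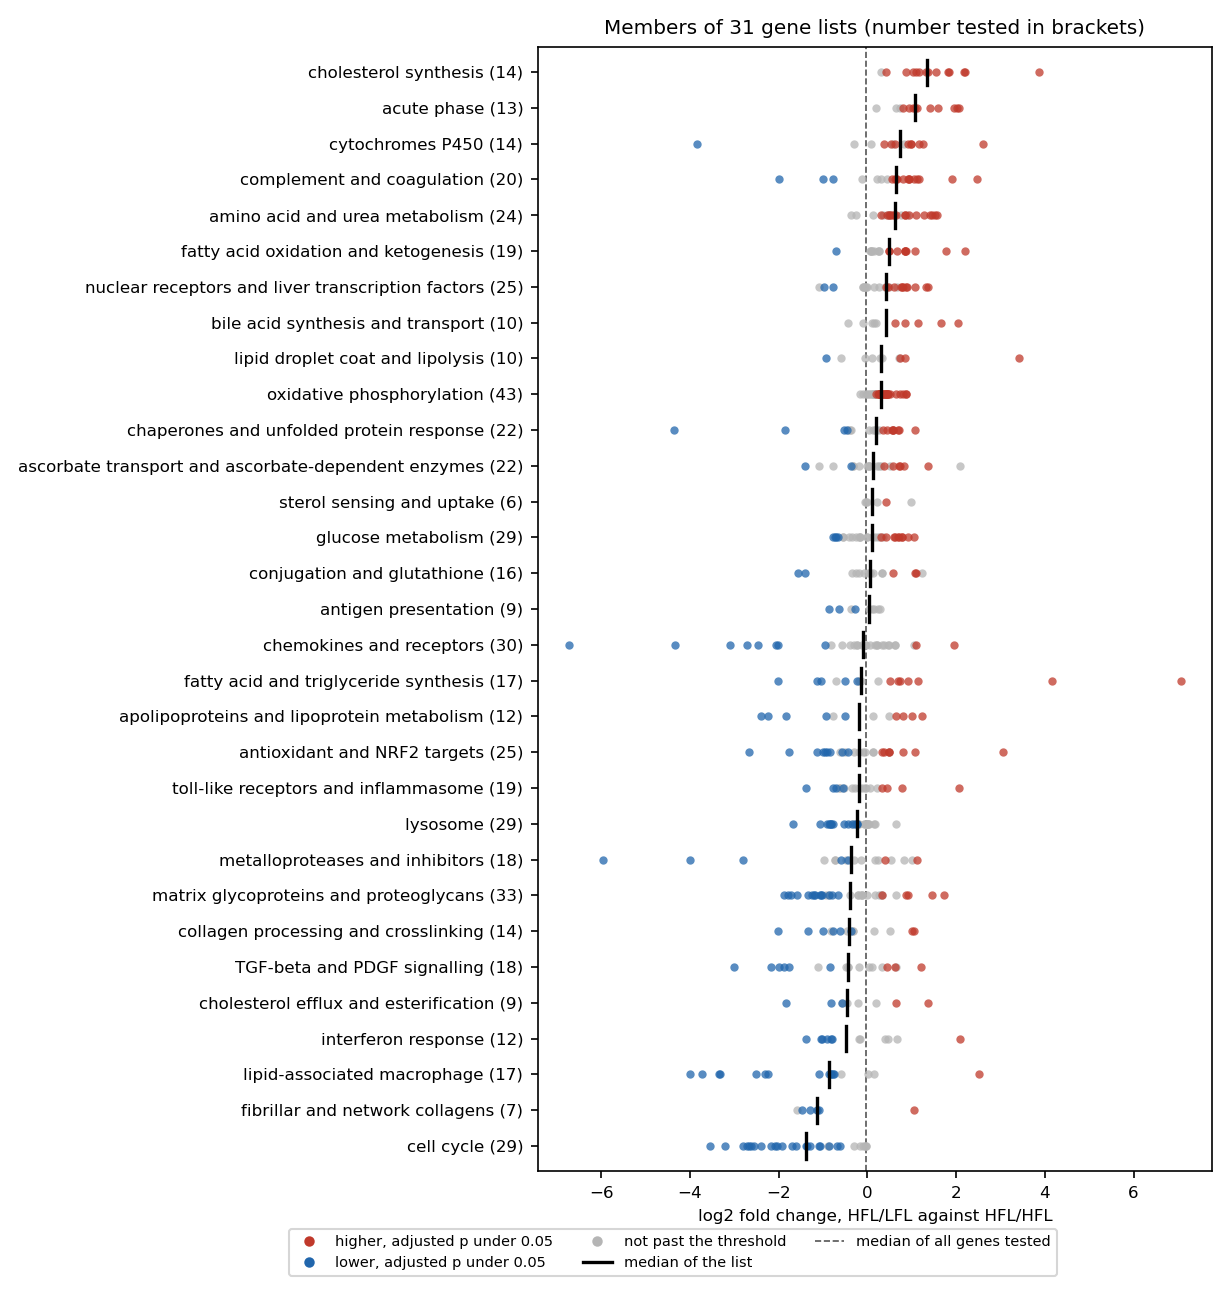
Log2 fold change of HFL/LFL over HFL/HFL for each tested member of the 31 pathway lists (x axis), with lists in rows; members that rose are red, those that fell are blue and the rest grey. Black bars mark list medians and the dashed line the median of all genes (-0.03). Cholesterol synthesis lies to the right with a median of 1.34 and cell cycle to the left with a median of -1.40.

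Genes of cholesterol synthesis rose in HFL/LFL. Of the 21 genes on the list, 14 were analysed, 13 rose and none fell, and 10 did not overlap between the groups (median log2 fold change 1.34, against -0.03 for all genes). Squalene epoxidase, SQLE, a controlled step of the pathway, shared its counts with ZNF572 and had a median of 74.2 CPM in HFL/LFL (57.3 to 128) and of 30.9 CPM in HFL/HFL (25.6 to 37.6) (log2 fold change 1.37 ± 0.19, adjusted p = 3.73e-07). Its lowest HFL/LFL animal exceeded the highest HFL/HFL animal. The late, sterol-modifying steps rose as well. SC5D, the lathosterol desaturase, ranged from 205 to 404 CPM (median 277) in HFL/LFL and from 43.2 to 82.9 CPM (median 62.6) in HFL/HFL (log2 fold change 2.21 ± 0.22, adjusted p = 4.27e-10), a 4.62-fold difference. MSMO1, the methylsterol oxidase, lay between 151 and 251 CPM in HFL/LFL (median 184) and between 25.2 and 57.5 CPM in HFL/HFL (median 41.8) (log2 fold change 2.17 ± 0.24, adjusted p = 1.86e-09). TM7SF2, a C14 sterol reductase, showed a smaller step and had a median of 267 CPM in HFL/LFL (202 to 418) and of 141 CPM in HFL/HFL (122 to 159) (log2 fold change 1.02 ± 0.13, adjusted p = 4.57e-08). For these 3 genes as well the groups were apart in every animal. Of the 16 genes of sterol sensing and uptake 6 were analysed and 1 rose (16.7%, near the 18.1% of all genes), with a median of 0.10. The gene that rose, MBTPS1, the site-1 protease of the sterol regulatory element binding proteins, changed by 0.41 with an adjusted p of 0.0239 and was not called without HFL/LFL animal 49 or animal 53.

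Export and esterification genes moved in both directions. On that list 9 of 15 genes were analysed, 2 rose and 3 fell. ABCG1, the liver X receptor target that loads cholesterol onto high density lipoprotein, ranged from 37.9 to 90.9 CPM (median 57.5) in HFL/LFL and from 163 to 278 CPM (median 207) in HFL/HFL (log2 fold change -1.85 ± 0.20, adjusted p = 1.59e-09). NR1H3, the gene of liver X receptor alpha itself, moved the other way and lay between 349 and 471 CPM in HFL/LFL (median 405) and between 93.5 and 208 CPM in HFL/HFL (median 174) (log2 fold change 1.36 ± 0.16, adjusted p = 9.72e-09). Neither gene overlapped between the groups. LCAT, the plasma enzyme that esterifies cholesterol, had a median of 741 CPM in HFL/LFL (636 to 928) and of 504 CPM in HFL/HFL (271 to 645) (log2 fold change 0.64 ± 0.14, adjusted p = 0.00044), with some overlap. APOE, a ligand of lipoprotein receptors, ranged from 33067 to 42474 CPM (median 38266) in HFL/LFL and from 39479 to 73671 CPM (median 54022) in HFL/HFL (log2 fold change -0.57 ± 0.15, adjusted p = 0.00276) and also overlapped. SOAT2, the hepatic cholesterol acyltransferase, was at or under 3 counts in 3 of 6 and 5 of 10 animals and did not pass the test. No fold change is given for it at so low a level.

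Bile acid genes rose where they changed. Of 23 listed genes 10 were analysed, 5 rose and none fell (median 0.41), although 1 gene was called lower without HFL/HFL animal 12 or animal 90. CYP8B1, the sterol 12-alpha-hydroxylase that sets the cholic acid share, lay between 4.78 and 60.5 CPM in HFL/LFL (median 26.2) and between 1.63 and 12.7 CPM in HFL/HFL (median 6.85) (log2 fold change 2.05 ± 0.50, adjusted p = 0.00109). AKR1D1, the 5-beta-reductase of the bile acid nucleus, had a median of 337 CPM in HFL/LFL (188 to 556) and of 108 CPM in HFL/HFL (48.3 to 195) (log2 fold change 1.66 ± 0.32, adjusted p = 8.40e-05). In both the highest HFL/HFL animals reached the lowest HFL/LFL animals. ACOX2, the peroxisomal oxidase of bile acid intermediates, changed by 0.85 ± 0.17, adjusted p = 0.000127. SLC27A5, the bile acid CoA ligase, ranged from 1271 to 1935 CPM (median 1458) in HFL/LFL and from 606 to 1239 CPM (median 1028) in HFL/HFL (log2 fold change 0.61 ± 0.16, adjusted p = 0.00278), with no overlap. SLCO1B1, a hepatocyte organic anion carrier whose counts are shared with SLCO1B3, changed by 1.15 ± 0.23, adjusted p = 0.00011. NR0B2, the repressor SHP, ranged over similar values in both groups, 52.4 to 129 CPM in HFL/LFL, and did not pass the test (-0.10 ± 0.28, adjusted p = 0.806).

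Fatty acid and triglyceride synthesis did not move as a block. Of 30 genes, 17 were analysed, 7 rose and 5 fell, with a median of -0.14. THRSP, the carbohydrate-responsive lipogenic factor Spot 14, lay between 4.75 and 332 CPM in HFL/LFL (median 26.7) and between 0 and 1.4 CPM in HFL/HFL (median 0.687) (log2 fold change 7.08 ± 0.69, adjusted p = 2.15e-10). The 6 HFL/LFL animals spread widely, but each lay above all HFL/HFL animals. ELOVL2, an elongase of polyunsaturated fatty acids, had a median of 43.7 CPM in HFL/LFL (4.99 to 142) and of 1.85 CPM in HFL/HFL (0.763 to 13.3) (log2 fold change 4.17 ± 0.59, adjusted p = 4.39e-07). GPAM, the mitochondrial acyltransferase that opens glycerolipid synthesis, ranged from 142 to 561 CPM (median 241) in HFL/LFL and from 71.6 to 217 CPM (median 143) in HFL/HFL (log2 fold change 1.14 ± 0.28, adjusted p = 0.00141). Both of these overlapped between the groups. AGPAT3, an acyltransferase of the same route, lay between 233 and 328 CPM in HFL/LFL (median 293) and between 114 and 206 CPM in HFL/HFL (median 177) (log2 fold change 0.72 ± 0.13, adjusted p = 2.08e-05) with no overlap, and SLC25A1, the mitochondrial citrate carrier, changed by 0.69 ± 0.16, adjusted p = 0.00062. ACACA, acetyl-CoA carboxylase 1, fell from a median of 46.3 to 34.9 CPM (log2 fold change -0.50 ± 0.16, adjusted p = 0.00945), and ME1, the malic enzyme that supplies NADPH, fell from a median of 2.4 to 1.04 CPM (log2 fold change -1.06 ± 0.33, adjusted p = 0.0106). ACLY, ATP citrate lyase, did not pass the test (0.24 ± 0.13, adjusted p = 0.151).

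Fatty acid oxidation and ketogenesis genes mostly rose. Of 39 genes 19 were analysed and 10 rose (median 0.49). The single member called lower, ACADL, changed by -0.70 with an adjusted p of 0.0297 and was not called without HFL/HFL animal 12, 29 or 75 or HFL/LFL animal 49, 53 or 68. CPT1A, the gate for fatty acid entry into mitochondria, had a median of 506 CPM in HFL/LFL (195 to 1563) and of 135 CPM in HFL/HFL (90.9 to 231) (log2 fold change 2.19 ± 0.33, adjusted p = 1.06e-06). Animals of HFL/LFL differed widely in CPT1A and the lowest of them lay within the range of HFL/HFL. Enzymes of the beta-oxidation spiral stood apart more cleanly. HADH, the short-chain hydroxyacyl-CoA dehydrogenase, ranged from 612 to 980.1 CPM (median 806) in HFL/LFL and from 199 to 518 CPM (median 378) in HFL/HFL (log2 fold change 1.08 ± 0.20, adjusted p = 2.78e-05). ECHS1, the short-chain enoyl-CoA hydratase, lay between 954 and 1712 CPM in HFL/LFL (median 1350.2) and between 396 and 951 CPM in HFL/HFL (median 762) (log2 fold change 0.84 ± 0.17, adjusted p = 0.00011). ETFB, a subunit of the flavoprotein that passes their electrons on, had a median of 681 CPM in HFL/LFL (602 to 881) and of 390.4 CPM in HFL/HFL (283 to 432) (log2 fold change 0.87 ± 0.11, adjusted p = 5.27e-08). None of the 3 overlapped between the groups. ACSL3, an acyl-CoA synthetase of lipid droplets, ranged from 20.4 to 59.3 CPM (median 23.5) in HFL/LFL and from 5.93 to 12.3 CPM (median 8.38) in HFL/HFL (log2 fold change 1.77 ± 0.27, adjusted p = 1.25e-06), again without overlap. PDK4, a kinase that blocks pyruvate oxidation and is induced by fasting, did not pass the test (0.25 ± 0.19, adjusted p = 0.299).

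On the lipid droplet list 10 of 19 genes were analysed, 3 rose and 1 fell (2 fell without HFL/LFL animal 49). CIDEA, a droplet fusion protein, lay between 33.5 and 187 CPM in HFL/LFL (median 81.6) and between 5.64 and 12.5 CPM in HFL/HFL (median 9.29) (log2 fold change 3.41 ± 0.31, adjusted p = 4.76e-11). LIPE, hormone-sensitive lipase, had a median of 18.6 CPM in HFL/LFL (15 to 25.8) and of 11 CPM in HFL/HFL (8.64 to 13.7) (log2 fold change 0.85 ± 0.17, adjusted p = 8.25e-05). MGLL, which completes triglyceride breakdown, ranged from 132 to 201 CPM (median 174) in HFL/LFL and from 60.9 to 129.5 CPM (median 106) in HFL/HFL (log2 fold change 0.73 ± 0.16, adjusted p = 0.000277). These 3 were higher in each HFL/LFL animal than in any HFL/HFL animal. HILPDA, an inhibitor of lipolysis, was the member that fell, and it lay between 12.1 and 25.1 CPM in HFL/LFL (median 18.3) and between 19.8 and 57.3 CPM in HFL/HFL (median 33.1) (log2 fold change -0.94 ± 0.18, adjusted p = 8.80e-05). PLIN2, the coat protein whose abundance follows hepatic lipid, had a median of 74.8 CPM in HFL/LFL (44.6 to 318) and of 194 CPM in HFL/HFL (119 to 269). It did not pass the test (-0.61 ± 0.30, adjusted p = 0.113), but without HFL/LFL animal 49, the highest of its group, the log2 fold change was -1.16 and the gene was called lower, as it was by limma voom with sample weights (-1.06).

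Among apolipoproteins and lipoprotein enzymes 12 of 26 genes were analysed, 4 rose and 5 fell. LPL, lipoprotein lipase, which hydrolyses the triglyceride of circulating particles, ranged from 7.4 to 22.9 CPM (median 15.4) in HFL/LFL and from 38.7 to 112 CPM (median 63.1) in HFL/HFL (log2 fold change -2.23 ± 0.37, adjusted p = 5.88e-06). APOD, a lipocalin apolipoprotein, lay between 64.8 and 243 CPM in HFL/LFL (median 159) and between 371 and 988 CPM in HFL/HFL (median 569) (log2 fold change -1.84 ± 0.25, adjusted p = 2.10e-07). VLDLR, a receptor for triglyceride-rich particles, had a median of 38.2 CPM in HFL/LFL (32.8 to 50.2) and of 69.9 CPM in HFL/HFL (52.9 to 135) (log2 fold change -0.93 ± 0.21, adjusted p = 0.000403). The groups did not overlap for any of the 3. APOA2 and APOH, both secreted by hepatocytes, rose, APOA2 by 0.997 ± 0.19, adjusted p = 7.11e-05 and APOH by 0.79 ± 0.18, adjusted p = 0.000472.

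**Figure D2:**
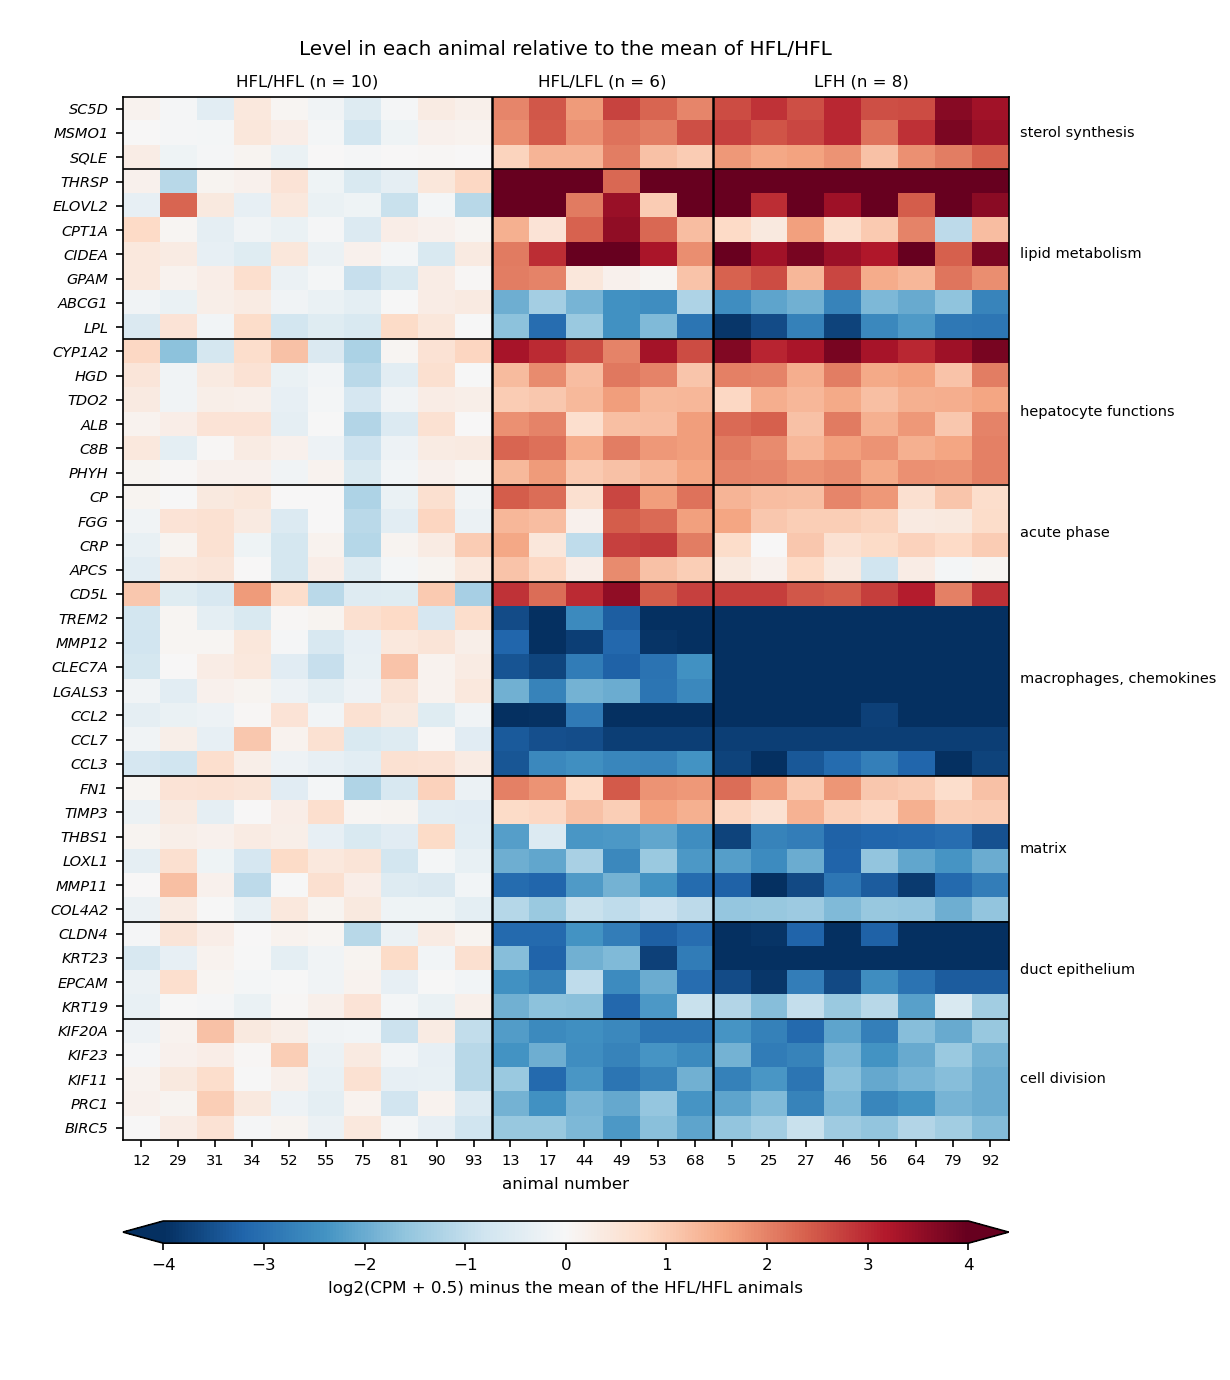
Log2(CPM + 0.5) minus the HFL/HFL mean for 43 named genes (rows) in each animal of HFL/HFL (n = 10), HFL/LFL (n = 6) and LFH (n = 8), in columns; red is above and blue below the HFL/HFL mean, with colours capped at 4 on either side. SC5D is red in each of the 6 HFL/LFL animals and TREM2 blue in each.

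Amino acid enzymes of hepatocytes rose. For amino acid and urea metabolism 24 of 58 genes were analysed and 16 rose (median 0.62), while none fell (1 fell without HFL/LFL animal 53). HGD, of tyrosine breakdown, ranged from 962 to 1948 CPM (median 1368) in HFL/LFL and from 212 to 696 CPM (median 428) in HFL/HFL (log2 fold change 1.57 ± 0.26, adjusted p = 8.61e-06). AHCY, which clears S-adenosylhomocysteine, lay between 1495 and 2721 CPM in HFL/LFL (median 1657) and between 437 and 917 CPM in HFL/HFL (median 684) (log2 fold change 1.41 ± 0.20, adjusted p = 3.23e-07). TDO2, which opens tryptophan breakdown, changed by 1.27 ± 0.15, adjusted p = 8.85e-09. The groups did not overlap for any of the 3. OTC, of the urea cycle, varied widely between animals and did not pass the test (0.90 ± 0.55, adjusted p = 0.206), nor did GLUL, glutamine synthetase (-0.37 ± 0.21, adjusted p = 0.163), or BHMT, betaine-homocysteine methyltransferase (0.76 ± 0.38, adjusted p = 0.118).

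Of the cytochrome P450 genes 14 of 37 were analysed, 9 rose and 1 fell (median 0.73). CYP1A2, a xenobiotic oxidase of pericentral hepatocytes, had a median of 2077 CPM in HFL/LFL (1174 to 2986) and of 380.0 CPM in HFL/HFL (94.7 to 666) (log2 fold change 2.61 ± 0.39, adjusted p = 1.20e-06). CYP2B6, a target of the constitutive androstane receptor, ranged from 1881 to 3856 CPM (median 2177) in HFL/LFL and from 638 to 1429 CPM (median 1203) in HFL/HFL (log2 fold change 1.25 ± 0.21, adjusted p = 9.14e-06). Neither overlapped. CYP2D6, which shares its counts with CYP2D7, changed by 1.16 ± 0.24, adjusted p = 0.000196, and CYP2R1, a vitamin D 25-hydroxylase, by 0.92 ± 0.15, adjusted p = 7.52e-06. CYP1B1, an extrahepatic family member found in mesenchymal cells, was the gene that fell and lay between 0 and 2.21 CPM in HFL/LFL (median 0.732) and between 3.98 and 22.4 CPM in HFL/HFL (median 9.45) (log2 fold change -3.85 ± 0.74, adjusted p = 6.66e-05). Conjugation and glutathione genes gave a median of 0.07, with 16 of 40 analysed, 3 higher and 2 lower (1 lower without HFL/LFL animal 13, 17, 53 or 68). UGT1A6, a glucuronosyltransferase, had a median of 3060.3 CPM in HFL/LFL (2242 to 4173) and of 1486 CPM in HFL/HFL (955 to 1857) (log2 fold change 1.07 ± 0.17, adjusted p = 3.40e-06). EPHX1, microsomal epoxide hydrolase, which shares its counts with SRP9, changed by 1.10 ± 0.20, adjusted p = 2.76e-05. GSTP1, a glutathione transferase known from biliary cells, ranged from 46 to 95.6 CPM (median 52.6) in HFL/LFL and from 120.1 to 261 CPM (median 177) in HFL/HFL (log2 fold change -1.57 ± 0.22, adjusted p = 3.43e-07), lower in each HFL/LFL animal.

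Respiratory chain and citric acid cycle genes rose by small steps, with 43 of 59 analysed, 28 higher, none lower and a median of 0.30. NDUFC2, a complex I subunit, changed by 0.88 ± 0.15, adjusted p = 7.54e-06, FH, fumarase, by 0.81 ± 0.17, adjusted p = 0.000149, and SDHC, a complex II anchor, by 0.44 ± 0.09, adjusted p = 0.000143, with no overlap of the groups for these 3. COX4I1, of complex IV, did not pass the test (0.18 ± 0.12, adjusted p = 0.271). Glucose metabolism was mixed, with 29 of 45 analysed, 10 higher and 4 lower. The members that rose included SLC37A4, the glucose-6-phosphate carrier (0.91 ± 0.17, adjusted p = 2.65e-05), and KHK, ketohexokinase (0.70 ± 0.20, adjusted p = 0.00619). The 4 that fell were ALDOA (-0.72 ± 0.15, adjusted p = 0.000136), LDHB (-0.79 ± 0.17, adjusted p = 0.0004004), PFKP (-0.71 ± 0.16, adjusted p = 0.000515) and ENO2 (-0.67 ± 0.18, adjusted p = 0.00266).

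Genes of secreted plasma proteins rose as well. In complement and coagulation 20 of 53 genes were analysed, 13 rose and 3 fell (median 0.65). C8B, of the membrane attack complex, lay between 947 and 1729 CPM in HFL/LFL (median 1277) and between 191 and 453 CPM in HFL/HFL (median 369) (log2 fold change 1.90 ± 0.22, adjusted p = 9.85e-09). C8A, its partner chain, had a median of 1166 CPM in HFL/LFL (928 to 1319) and of 506 CPM in HFL/HFL (263 to 657) (log2 fold change 1.17 ± 0.17, adjusted p = 1.11e-06). F12, coagulation factor XII, changed by 1.11 ± 0.20, adjusted p = 2.78e-05, and F9, factor IX, by 0.91 ± 0.17, adjusted p = 6.91e-05. The groups were separate in each of these. PLAT, tissue plasminogen activator, ranged from 34.6 to 57.6 CPM (median 40.8) in HFL/LFL and from 62.2 to 92.9 CPM (median 74.2) in HFL/HFL (log2 fold change -0.77 ± 0.17, adjusted p = 0.000271). CFD, complement factor D, a serine protease of the alternative pathway, changed by -1.002 ± 0.29, adjusted p = 0.00489.

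Acute phase genes rose in HFL/LFL, with 13 of 30 analysed, 10 higher and none lower (median 1.08). CP, ceruloplasmin, lay between 1336 and 5434 CPM in HFL/LFL (median 3957) and between 367 and 1342 CPM in HFL/HFL (median 873) (log2 fold change 2.02 ± 0.27, adjusted p = 9.61e-08). FGG, the fibrinogen gamma chain, had a median of 11575 CPM in HFL/LFL (4599 to 21901) and of 3935 CPM in HFL/HFL (1926 to 7347) (log2 fold change 1.58 ± 0.29, adjusted p = 2.65e-05). APCS, serum amyloid P, ranged from 263 to 819 CPM (median 460.4) in HFL/LFL and from 136 to 310.2 CPM (median 229.8) in HFL/HFL (log2 fold change 1.08 ± 0.21, adjusted p = 7.23e-05). CRP, C-reactive protein, lay between 1.11 and 22.1 CPM in HFL/LFL (median 11) and between 0.999 and 6.15 CPM in HFL/HFL (median 3.04) (log2 fold change 1.95 ± 0.38, adjusted p = 9.19e-05). In these 4 the lowest HFL/LFL animal fell within the range of HFL/HFL. SERPINA3, a protease inhibitor of the acute phase, changed by 1.12 ± 0.22, adjusted p = 8.21e-05, and SOCS3, the feedback inhibitor of interleukin 6 signalling, by 0.94 ± 0.26, adjusted p = 0.0042. IL6R, the interleukin 6 receptor of hepatocytes, a member of both this list and that of innate receptors, had a median of 358 CPM in HFL/LFL (256 to 417) and of 69.7 CPM in HFL/HFL (33.6 to 155) (log2 fold change 2.07 ± 0.30, adjusted p = 7.19e-07), with no overlap. LRG1, a leucine-rich glycoprotein induced with the acute phase, did not pass the test (0.64 ± 0.31, adjusted p = 0.108) but was called higher without HFL/LFL animal 17 (0.80) or animal 44 (0.85). HAMP, hepcidin, spanned 165 to 2268 CPM within HFL/LFL and did not pass either (0.74 ± 0.55, adjusted p = 0.306).

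The genes of lipid-associated macrophages fell. Of 29 genes 17 were analysed, 13 fell and 1 rose, and 10 of those that fell did not overlap (median -0.86). TREM2 ranged from 3.52 to 14.2 CPM (median 5.47) in HFL/LFL and from 50.5 to 148 CPM (median 88.8) in HFL/HFL (log2 fold change -3.73 ± 0.48, adjusted p = 7.06e-08), a 13.3-fold difference. MMP12, macrophage elastase, lay between 1.34 and 6.42 CPM in HFL/LFL (median 3.76) and between 35.5 and 86.7 CPM in HFL/HFL (median 64.3) (log2 fold change -3.997 ± 0.53, adjusted p = 1.29e-07). CLEC7A, the beta-glucan receptor Dectin-1, had a median of 2.78 CPM in HFL/LFL (1.67 to 4.77) and of 29.1 CPM in HFL/HFL (14.3 to 60.6) (log2 fold change -3.34 ± 0.39, adjusted p = 9.74e-09). In the 3 genes the highest HFL/LFL animal lay under the lowest HFL/HFL animal. LGALS3, galectin 3, ranged from 57.9 to 119 CPM (median 92.2) in HFL/LFL and from 326 to 621 CPM (median 438) in HFL/HFL (log2 fold change -2.30 ± 0.30, adjusted p = 7.44e-08). CSTB, the cathepsin inhibitor cystatin B, lay between 137 and 236 CPM in HFL/LFL (median 187) and between 338 and 501 CPM in HFL/HFL (median 369) (log2 fold change -1.09 ± 0.13, adjusted p = 2.24e-08). CTSD, cathepsin D, shared its counts with an unnamed row and changed by -0.78 ± 0.15, adjusted p = 6.66e-05. The member that rose was CD5L, an anti-apoptotic protein secreted by resident Kupffer cells, which had a median of 237 CPM in HFL/LFL (158 to 394) and of 23.7 CPM in HFL/HFL (12.9 to 111) (log2 fold change 2.52 ± 0.39, adjusted p = 1.75e-06), with no overlap. Among the markers of macrophages and Kupffer cells in general, 9 of 20 were analysed, 2 rose and 2 fell. MRC1, the mannose receptor of resident macrophages and sinusoidal endothelium, ranged from 111 to 151 CPM (median 126) in HFL/LFL and from 42.4 to 89.4 CPM (median 56.1) in HFL/HFL (log2 fold change 1.15 ± 0.12, adjusted p = 8.68e-10). MSR1, a scavenger receptor, was lower (-0.75 ± 0.19, adjusted p = 0.00204), as was AIF1, a cytoskeletal protein of macrophages (-0.71 ± 0.22, adjusted p = 0.00817). The summed level of the 9 markers was 1068 to 2165 CPM (median 1577) in HFL/LFL and 922 to 1585 CPM (median 1253) in HFL/HFL.

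**Figure D3:**
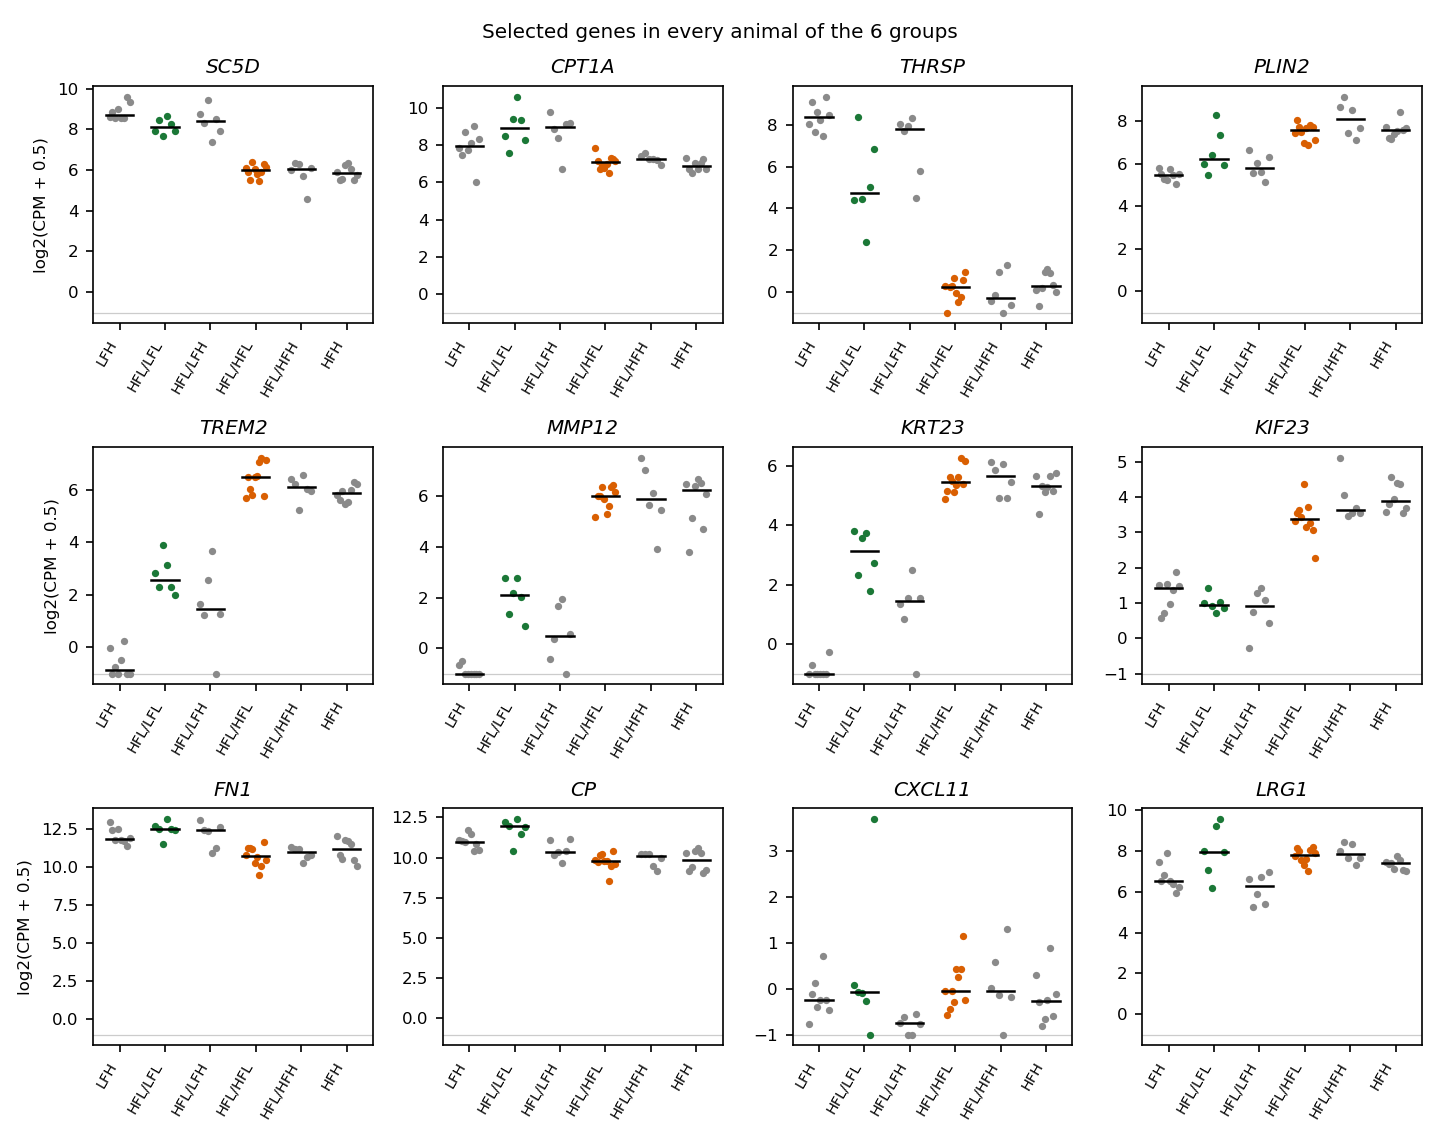
Log2(CPM + 0.5) of 12 genes in every animal of the 6 diet groups, with HFL/LFL in green, HFL/HFL in orange, black lines at group medians and a grey line where a value of 0 is drawn. The HFL/LFL medians are 277 CPM for SC5D and 5.47 CPM for TREM2, against 62.6 and 88.8 CPM in HFL/HFL.

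Of the chemokines and their receptors 30 of 53 were analysed and 8 fell, 2 rose and 20 did not pass the test, with a median near that of all genes (-0.09). Among those that fell, CCL2, monocyte chemoattractant protein 1, lay between 0.65 and 3.45 CPM in HFL/LFL (median 1.03) and between 19.4 and 42.5 CPM in HFL/HFL (median 25.2) (log2 fold change -4.35 ± 0.43, adjusted p = 3.30e-10). CCL7, a further ligand of the same receptor, had a median of 0.0443 CPM in HFL/LFL (0 to 0.17) and of 6.18 CPM in HFL/HFL (3.96 to 13.8) (adjusted p = 7.25e-09), and 5 of the 6 HFL/LFL animals were at or under 3 counts, so no fold change is given. CCL3, which shares its counts with CCL18 and CCL3L1, ranged from 0.636 to 1.85 CPM (median 1.54) in HFL/LFL and from 6.54 to 18.8 CPM (median 12.1) in HFL/HFL (log2 fold change -3.11 ± 0.43, adjusted p = 2.88e-07). CCL4, shared with CCL4L2, lay between 0.957 and 4.68 CPM in HFL/LFL (median 2.31) and between 5.47 and 17.7 CPM in HFL/HFL (median 8.67) (log2 fold change -2.06 ± 0.36, adjusted p = 1.74e-05). The groups did not overlap for any of these 4. CCL22, a ligand that attracts regulatory T cells, changed by -2.73 ± 0.52, adjusted p = 6.66e-05. The genes counted higher were XCL1 and CXCL11, with only 1 without HFL/HFL animal 12, 29, 31, 52 or 93 or HFL/LFL animal 68. CXCL11 was also not called with only the groups compared or by limma voom. XCL1, a lymphocyte chemokine that shares its counts with XCL2, changed by 1.08 ± 0.32, adjusted p = 0.00725. CXCL11, an interferon-induced T cell chemokine, was called higher at 1.956 ± 0.76 with HFL/LFL animal 68 at 12.5 CPM against a group median of 0.449. Without that animal its log2 fold change was -0.77.

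Most interferon genes that changed fell. Of 37 listed genes 12 were analysed, 6 fell (3 without HFL/LFL animal 53) and 1 rose (none without HFL/LFL animal 68, 2 without HFL/HFL animal 90 or HFL/LFL animal 44), with a median of -0.49. MX1, an antiviral GTPase, had a median of 13.2 CPM in HFL/LFL (8.41 to 21.7) and of 35.4 CPM in HFL/HFL (21.8 to 63) (log2 fold change -1.38 ± 0.30, adjusted p = 0.000362), with no overlap. ISG15, a ubiquitin-like modifier, changed by -1.03 ± 0.20, adjusted p = 5.69e-05, but the matrix gene AGRN carries identical counts, so the value cannot be given to either. OASL, an oligoadenylate synthetase-like protein, changed by -0.79 ± 0.25, adjusted p = 0.0115. IDO1, the interferon-induced tryptophan dioxygenase, was the member called higher (2.09 ± 0.75), again with HFL/LFL animal 68 highest at 219.9 CPM, and without that animal the value was -1.16. IRF1, a transcription factor of the response, did not pass the test (-0.20 ± 0.24, adjusted p = 0.546).

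Of the innate receptor and inflammasome genes 19 of 38 were analysed. Of these 4 were higher (21.1%) and 4 lower (21.1%), near the shares over all genes (18.1% and 19.7%). TNF, tumour necrosis factor, ranged from 1.36 to 6.48 CPM (median 1.82) in HFL/LFL and from 3.09 to 11.5 CPM (median 5.85) in HFL/HFL (log2 fold change -1.37 ± 0.41, adjusted p = 0.00696). TNFRSF1B, its inducible receptor, changed by -0.77 ± 0.17, adjusted p = 0.00036, GSDMD, the pore-forming protein of pyroptosis, by -0.70 ± 0.22, adjusted p = 0.0113, and IRAK4, a kinase of toll-like receptor signalling, by -0.55 ± 0.15, adjusted p = 0.00415. MYD88, the adaptor upstream of IRAK4, was higher (0.43 ± 0.12, adjusted p = 0.00317). TLR4 (-0.02 ± 0.33, adjusted p = 0.964) and IL1B (-0.64 ± 0.36, adjusted p = 0.167) did not pass the test. In antigen presentation 9 of 29 genes were analysed and 3 fell, among them CTSS, cathepsin S, which lay between 35.6 and 76.7 CPM in HFL/LFL (median 68.7) and between 87.2 and 144 CPM in HFL/HFL (median 105) (log2 fold change -0.86 ± 0.17, adjusted p = 9.88e-05). CD74, the class II invariant chain, was at -0.36 ± 0.23, adjusted p = 0.223. Lysosomal genes fell where they changed, with 29 of 51 analysed, 14 lower and none higher (median -0.24). GM2A, the ganglioside activator protein, had a median of 50.7 CPM in HFL/LFL (37.9 to 77.1) and of 166 CPM in HFL/HFL (118 to 254) (log2 fold change -1.68 ± 0.18, adjusted p = 2.22e-09). GALNS, a sulphatase of keratan sulphate breakdown, changed by -0.85 ± 0.12, adjusted p = 6.49e-07, CTSZ, cathepsin Z, by -1.07 ± 0.19, adjusted p = 1.49e-05, and CTSH, cathepsin H, by -0.82 ± 0.15, adjusted p = 3.08e-05. NPC1, the lysosomal cholesterol exporter (-0.02 ± 0.11, adjusted p = 0.89), and TFEB, the regulator of lysosome genes (-0.24 ± 0.20, adjusted p = 0.353), did not pass.

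Matrix genes were lower in part. Of 36 collagen genes only 7 were analysed, of which 4 fell and 1 rose (median -1.13). COL4A2, of basement membranes, ranged from 116 to 183 CPM (median 159) in HFL/LFL and from 249 to 431 CPM (median 304) in HFL/HFL (log2 fold change -1.08 ± 0.20, adjusted p = 2.93e-05). COL5A2, a fibrillar collagen, lay between 31.4 and 52.1 CPM in HFL/LFL (median 39.3) and between 60.8 and 138 CPM in HFL/HFL (median 78.8) (log2 fold change -1.13 ± 0.22, adjusted p = 7.11e-05). These groups did not overlap. COL6A2, a microfibrillar collagen, changed by -1.29 ± 0.37, adjusted p = 0.00548, and COL8A2, a network-forming collagen, by -1.48 ± 0.45, adjusted p = 0.00862. COL4A6, the member called higher (1.05 ± 0.40, adjusted p = 0.0341), was not called without HFL/HFL animal 29, 55, 81 or 90 or HFL/LFL animal 13 or 44. In collagen processing 14 of 28 genes were analysed, 6 fell and 2 rose. LOXL1, a lysyl oxidase that crosslinks elastin, had a median of 9.79 CPM in HFL/LFL (6.54 to 16.6) and of 37.7 CPM in HFL/HFL (24.4 to 70.7) (log2 fold change -2.02 ± 0.34, adjusted p = 9.39e-06). SERPINH1, the collagen chaperone HSP47, ranged from 81.5 to 150.2 CPM (median 99.6) in HFL/LFL and from 135 to 324 CPM (median 183) in HFL/HFL (log2 fold change -1.002 ± 0.23, adjusted p = 0.000523). LOXL4 changed by -0.79 ± 0.18, adjusted p = 0.000701 and LOXL2, which crosslinks basement membrane collagen, by -0.63 ± 0.22, adjusted p = 0.0211. TGM2, tissue transglutaminase, rose without overlap (1.05 ± 0.20, adjusted p = 4.46e-05), and P3H2, a prolyl 3-hydroxylase, rose with some overlap (0.999 ± 0.19, adjusted p = 4.75e-05).

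Of 52 matrix glycoprotein and proteoglycan genes 33 were analysed, 14 fell and 5 rose (median -0.39). The 14 include AGRN, whose counts are identical to those of ISG15 and so count in the interferon list as well. LAMB3, a laminin chain of epithelia, lay between 21.1 and 60.5 CPM in HFL/LFL (median 44.2) and between 107 and 187 CPM in HFL/HFL (median 158) (log2 fold change -1.78 ± 0.20, adjusted p = 4.09e-09), with no overlap. THBS1, thrombospondin 1, an activator of latent TGF-beta, had a median of 26.5 CPM in HFL/LFL (22.8 to 88.2) and of 141 CPM in HFL/HFL (83.9 to 217) (log2 fold change -1.88 ± 0.29, adjusted p = 1.68e-06). LUM, the collagen-binding proteoglycan lumican, changed by -0.79 ± 0.23, adjusted p = 0.00617, and SPARCL1, an adhesion-modulating glycoprotein, by -1.17 ± 0.23, adjusted p = 0.000102. FN1, fibronectin, which hepatocytes also secrete into plasma, rose and ranged from 2883 to 9130.1 CPM (median 5814) in HFL/LFL and from 721 to 3156 CPM (median 1660.1) in HFL/HFL (log2 fold change 1.72 ± 0.30, adjusted p = 1.58e-05). Its 2 groups overlapped at their edges. LAMA3, a further laminin chain, rose by 0.92 ± 0.20, adjusted p = 0.000304. CCN2, connective tissue growth factor (0.63 ± 0.36, adjusted p = 0.167), and BGN, biglycan (0.26 ± 0.25, adjusted p = 0.43), did not pass the test.

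Among proteases and their inhibitors 18 of 36 genes were analysed, 5 fell and 2 rose (1 without HFL/HFL animal 12 or 81 or HFL/LFL animal 17). MMP11, stromelysin 3 of activated fibroblasts, lay between 3.34 and 8.9 CPM in HFL/LFL (median 4.82) and between 16.2 and 78.5 CPM in HFL/HFL (median 34.2) (log2 fold change -2.80 ± 0.51, adjusted p = 2.92e-05). TIMP2, an inhibitor of metalloproteases, had a median of 104 CPM in HFL/LFL (79.3 to 115) and of 149 CPM in HFL/HFL (119.8 to 209) (log2 fold change -0.59 ± 0.15, adjusted p = 0.00196). TIMP3, the matrix-bound inhibitor, rose and ranged from 131 to 239.5 CPM (median 165) in HFL/LFL and from 56.9 to 123 CPM (median 80) in HFL/HFL (log2 fold change 1.13 ± 0.18, adjusted p = 3.66e-06). Groups were separate for all 3. The gelatinases MMP2 (-0.49 ± 0.47, adjusted p = 0.439) and MMP9 (-0.73 ± 0.44, adjusted p = 0.195) did not pass. In TGF-beta and PDGF signalling 18 of 34 genes were analysed, 6 fell and 3 rose. INHBB, the activin B subunit, lay between 0.912 and 4.39 CPM in HFL/LFL (median 1.39) and between 7.07 and 31 CPM in HFL/HFL (median 12.6) (log2 fold change -3.02 ± 0.38, adjusted p = 5.15e-08). LTBP2, a latent TGF-beta binding protein of microfibrils, had a median of 15 CPM in HFL/LFL (9.71 to 38.7) and of 70 CPM in HFL/HFL (36.6 to 153) (log2 fold change -2.18 ± 0.41, adjusted p = 5.14e-05). PDGFRB, the PDGF receptor of stellate cells and pericytes, changed by -0.83 ± 0.21, adjusted p = 0.00182. TGFBR3, betaglycan, ranged from 124 to 215 CPM (median 152) in HFL/LFL and from 45.9 to 90.7 CPM (median 70.1) in HFL/HFL (log2 fold change 1.22 ± 0.13, adjusted p = 2.03e-09), and SMAD6, an inhibitor of bone morphogenetic protein signals, rose by 0.62 ± 0.10, adjusted p = 7.66e-06.

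Biliary markers fell together. Of 16 cholangiocyte markers 8 were analysed, 7 fell and none rose, 5 without overlap (median -1.90). KRT19, the keratin of bile ducts, lay between 61 and 294 CPM in HFL/LFL (median 156) and between 439 and 795 CPM in HFL/HFL (median 531) (log2 fold change -1.80 ± 0.24, adjusted p = 1.46e-07). KRT23, a keratin induced in diseased liver, had a median of 8.74 CPM in HFL/LFL (2.96 to 13.6) and of 42.9 CPM in HFL/HFL (29 to 76.7) (log2 fold change -2.46 ± 0.40, adjusted p = 5.30e-06). CLDN4, a tight junction claudin, ranged from 4.83 to 9.29 CPM (median 5.63) in HFL/LFL and from 23.3 to 72.4 CPM (median 54) in HFL/HFL (log2 fold change -3.06 ± 0.31, adjusted p = 5.40e-10). EPCAM, of progenitor-like biliary cells, lay between 16.8 and 70.3 CPM in HFL/LFL (median 25) and between 112 and 224 CPM in HFL/HFL (median 137) (log2 fold change -2.16 ± 0.28, adjusted p = 7.94e-08). In these 4 genes each HFL/LFL animal was under each HFL/HFL animal. ELF3, an epithelial transcription factor, changed by -1.44 ± 0.21, adjusted p = 8.00e-07, and KRT7, a second ductal keratin, by -2.005 ± 0.43, adjusted p = 0.000255. Summed, the 8 markers came to 756 to 1172 CPM (median 838) in HFL/LFL and 1350.3 to 2016 CPM (median 1645) in HFL/HFL.

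Cell cycle genes fell as a group, with 29 of 49 analysed, 22 lower and none higher, 14 without overlap, and all 29 had a negative fold change (median -1.40). KIF20A, a mitotic kinesin, had a median of 1.04 CPM in HFL/LFL (0.694 to 1.44) and of 8.77 CPM in HFL/HFL (4.11 to 19.9) (log2 fold change -3.21 ± 0.42, adjusted p = 1.01e-07). KIF23, a kinesin of the midbody, ranged from 1.14 to 2.18 CPM (median 1.43) in HFL/LFL and from 4.32 to 20.2 CPM (median 9.89) in HFL/HFL (log2 fold change -2.81 ± 0.33, adjusted p = 7.46e-09). BIRC5, survivin, of the chromosomal passenger complex, lay between 3.62 and 6.49 CPM in HFL/LFL (median 5.48) and between 11 and 29.5 CPM in HFL/HFL (median 19.3) (log2 fold change -1.93 ± 0.23, adjusted p = 1.17e-08). PRC1, which bundles the central spindle, had a median of 5.01 CPM in HFL/LFL (3.55 to 6.95) and of 22.9 CPM in HFL/HFL (12.2 to 42.4) (log2 fold change -2.18 ± 0.32, adjusted p = 7.55e-07). The highest HFL/LFL animal was below the lowest HFL/HFL animal in each of the 4. CCND1, cyclin D1, changed by -0.87 ± 0.19, adjusted p = 0.000367 with overlapping groups, and PCNA, the replication clamp, did not pass (-0.10 ± 0.11, adjusted p = 0.531).

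Genes of redox defence moved in both directions. On the antioxidant list 25 of 46 genes were analysed, 7 rose and 9 fell. CAT, catalase, an enzyme of hepatocyte peroxisomes, ranged from 10231 to 19068 CPM (median 15041) in HFL/LFL and from 3286 to 9997 CPM (median 7426) in HFL/HFL (log2 fold change 1.06 ± 0.23, adjusted p = 0.000231). SOD1, the cytosolic superoxide dismutase, lay between 1385 and 2552 CPM in HFL/LFL (median 1748) and between 749.6 and 1299 CPM in HFL/HFL (median 1111) (log2 fold change 0.80 ± 0.13, adjusted p = 7.54e-06). Neither overlapped. GPX4, the lipid peroxide reductase, rose by 0.49 ± 0.13, adjusted p = 0.00289. CYBA and CYBB, which form the membrane core of the phagocyte oxidase, were lower (CYBA -0.96 ± 0.20, adjusted p = 0.000161, CYBB -0.85 ± 0.26, adjusted p = 0.00724). HMOX1, haem oxygenase 1, had a median of 255 CPM in HFL/LFL (169 to 345) and of 466 CPM in HFL/HFL (365 to 577) (log2 fold change -0.90 ± 0.21, adjusted p = 0.000639). PRDX1 (-0.43 ± 0.12, adjusted p = 0.00477) and PRDX2 (-1.78 ± 0.41, adjusted p = 0.000711), both peroxiredoxins, were lower, while PRDX5, the mitochondrial one, was higher (0.48 ± 0.13, adjusted p = 0.00351).

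Because vitC stayed low in both groups, genes that carry or need it were listed separately. Of 34 such genes 22 were analysed, 6 rose and 2 fell, with a median of 0.13. The count that fell was 1 without HFL/LFL animal 13 (a gene other than the 2 named here), 53 or 68 and 0 without animal 17. SLC23A2, the vitC transporter SVCT2, ranged from 65.3 to 101 CPM (median 76.3) in HFL/LFL and from 24.7 to 58.5 CPM (median 50.6) in HFL/HFL (log2 fold change 0.73 ± 0.16, adjusted p = 0.000284). PHYH, the peroxisomal phytanoyl-CoA hydroxylase, an ascorbate-using dioxygenase, lay between 3299 and 5199 CPM in HFL/LFL (median 3955) and between 1027 and 1798 CPM in HFL/HFL (median 1693) (log2 fold change 1.36 ± 0.17, adjusted p = 2.76e-08). Neither overlapped between the groups. BBOX1, which completes carnitine synthesis, had a median of 834 CPM in HFL/LFL (437 to 1038) and of 452 CPM in HFL/HFL (159.5 to 710.0) (log2 fold change 0.83 ± 0.23, adjusted p = 0.0037). PAM, the peptide amidating monooxygenase, changed by 0.70 ± 0.21, adjusted p = 0.00667. The genes that fell were GSTO2, a dehydroascorbate reductase (-1.40 ± 0.49, adjusted p = 0.0222, not called without HFL/LFL animal 13, 17, 53 or 68), and P4HA2, a collagen prolyl hydroxylase subunit (-0.36 ± 0.13, adjusted p = 0.0266, not called without HFL/LFL animal 13 or 17). The collagen hydroxylases P4HA1 (0.52 ± 0.31, adjusted p = 0.194) and PLOD2 (-0.32 ± 0.31, adjusted p = 0.435) did not pass the test.

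Chaperones and genes of the unfolded protein response moved in both directions, with 22 of 38 analysed, 8 higher (5 without HFL/LFL animal 49) and 4 lower (2 without HFL/LFL animal 13). HSP90B1, the endoplasmic chaperone GRP94, ranged from 1124 to 2455 CPM (median 1718) in HFL/LFL and from 828 to 1257 CPM (median 1030.3) in HFL/HFL (log2 fold change 0.69 ± 0.15, adjusted p = 0.000265). PDIA4, a disulphide isomerase, rose by 0.70 ± 0.15, adjusted p = 0.000269, and DNAJB9, a cochaperone of the same compartment, by 1.06 ± 0.20, adjusted p = 5.06e-05. ATF4, a transcription factor of the stress response, was higher (0.34 ± 0.12, adjusted p = 0.0176) but not called without HFL/LFL animal 49 or 53 or by limma voom. Among the 4 lower, ATF3, also a transcription factor, lay between 26.8 and 105 CPM in HFL/LFL (median 45.5) and between 125 and 305 CPM in HFL/HFL (median 197) (log2 fold change -1.87 ± 0.29, adjusted p = 2.78e-06), and CHAC1, a glutathione-degrading enzyme, had a median of 0.173 CPM in HFL/LFL (0 to 0.772) and of 4.38 CPM in HFL/HFL (2.43 to 9.46) (log2 fold change -4.35 ± 0.66, adjusted p = 1.40e-06). Both were separate between the groups. DDIT3, the factor CHOP, was lower by a small step (-0.45 ± 0.18, adjusted p = 0.049) and was not called without HFL/HFL animal 31, 34, 52, 55, 81, 90 or 93 or HFL/LFL animal 13, 49 or 68, nor with RLE scaling or with no filter.

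Of 57 nuclear receptors and liver transcription factors 25 were analysed, 11 rose and 2 fell (median 0.42). RXRA, the shared partner of the lipid-sensing receptors, ranged from 795 to 915 CPM (median 877) in HFL/LFL and from 328 to 570.3 CPM (median 471) in HFL/HFL (log2 fold change 0.87 ± 0.11, adjusted p = 7.44e-08). The groups did not overlap for this gene. CRY1, a repressor of the circadian clock, rose by 0.88 ± 0.14, adjusted p = 1.87e-06 and ARNTL, the clock activator BMAL1, by 0.75 ± 0.21, adjusted p = 0.0035, whereas NR1D1, the repressor REV-ERB alpha, fell (-0.78 ± 0.18, adjusted p = 0.000744). The hour of killing was randomised within groups by the study's methods but is not in the labels, so the part of the hour in these 3 clock genes was not tested. PPARG, a lipogenic receptor of fat and macrophages, was the other gene that fell and changed by -0.98 ± 0.20, adjusted p = 0.000136.

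Markers of some cell types changed alongside these lists, and their part in the results was not tested. Hepatocyte markers summed to 86234 to 188054 CPM (median 149194) in HFL/LFL and 34193 to 93985 CPM (median 66839) in HFL/HFL, carried largely by ALB, albumin (1.41 ± 0.32, adjusted p = 0.00062), with 6 of 16 analysed and 3 higher. Endothelial markers summed to 1397 to 1729 CPM (median 1538) against 672 to 1193 CPM (median 921), with 7 of 19 analysed and 5 higher (3 without HFL/LFL animal 13). LYVE1, the hyaluronan receptor of sinusoidal endothelium, lay between 214 and 331 CPM in HFL/LFL (median 235) and between 48.5 and 165 CPM in HFL/HFL (median 112) (log2 fold change 1.22 ± 0.21, adjusted p = 1.78e-05), without overlap, and EHD3, also of sinusoids, rose by 1.12 ± 0.18, adjusted p = 2.81e-06, while PECAM1, of all endothelium, did not pass (0.06 ± 0.09, adjusted p = 0.637). Stellate and fibroblast markers overlapped in sum, at 1765 to 2449 CPM (median 1879) against 1617 to 2883 CPM (median 2280.3), with 10 of 19 analysed, 3 lower and 4 higher. The 4 became 1 without HFL/HFL animal 81 or 93 or HFL/LFL animal 44, and 2 without HFL/HFL animal 29 or HFL/LFL animal 13, 17, 49 or 53. With all animals it was 1 with upper-quartile scaling or no filter and 2 with only the groups compared or by limma voom. RGS5, a pericyte marker, had a median of 224 CPM in HFL/LFL (149 to 288) and of 586 CPM in HFL/HFL (347 to 705) (log2 fold change -1.35 ± 0.19, adjusted p = 3.29e-07), and ACTA2, smooth muscle actin, did not pass (0.50 ± 0.37, adjusted p = 0.2997).

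Few lymphocyte and neutrophil markers passed the test. Sums for T and NK cells were 162 to 334 CPM (median 227) in HFL/LFL and 144 to 238 CPM (median 197) in HFL/HFL, with 18 of 28 analysed, 1 higher and 0 lower. The count higher was 0 without HFL/HFL animal 12, 29, 52, 55, 75, 81 or 93 or HFL/LFL animal 13, 17 or 68, and 2 without HFL/HFL animal 34 or HFL/LFL animal 44 or 53, and 1 was lower without HFL/LFL animal 17. CD3E, of the T cell receptor complex, was at 0.47 ± 0.20, adjusted p = 0.0635 and CD8A at -0.21 ± 0.43, adjusted p = 0.728. B and plasma cell markers had 12 of 19 analysed and 1 higher, with sums of 379.5 to 502 CPM (median 429) against 376 to 626 CPM (median 531). Neutrophil markers had 12 of 20 analysed and 2 lower (1 higher without HFL/HFL animal 81), with sums of 263 to 367 CPM (median 328) against 253 to 439 CPM (median 315) and LCN2 at 0 in every library. The erythroid markers, 2 of 10 analysed, summed to 219 to 1265 CPM (median 479) in HFL/LFL and 202 to 5019 CPM (median 2197) in HFL/HFL. Both were called lower, and only 1 was without HFL/HFL animal 29, 34, 52 or 75 or HFL/LFL animal 13, 17, 44, 49 or 53.

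The 6 HFL/LFL animals differed among themselves. A list score, the median over members of log2 CPM relative to the HFL/HFL mean, was computed for each animal as a description. For cholesterol synthesis it ran from 1.11 in animal 44 to 1.65 in animal 17, against -0.27 to 0.31 in HFL/HFL. Cell cycle scores lay between -2.03 and -1.06 against -0.45 to 0.41, and cholangiocyte markers between -2.13 and -1.28 against -0.28 to 0.24. Those 3 lists left a gap between the groups. Animal 44 stood nearest to HFL/HFL in several lists, at -0.71 for lipid-associated macrophages, -0.50 for collagens, 0.04 for matrix glycoproteins and 0.19 for the acute phase, where the group medians were -1.26, -1.02, -0.50 and 1.23. Animal 68 had the highest interferon score of HFL/LFL (0.37 against a group median of -0.65) with the lowest collagen score (-1.46). In HFL/HFL, animal 75 had the lowest scores for amino acid metabolism (-0.59), cytochromes P450 (-0.67) and hepatocyte markers (-0.80) and the highest for collagens (0.95).

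**Figure D4:**
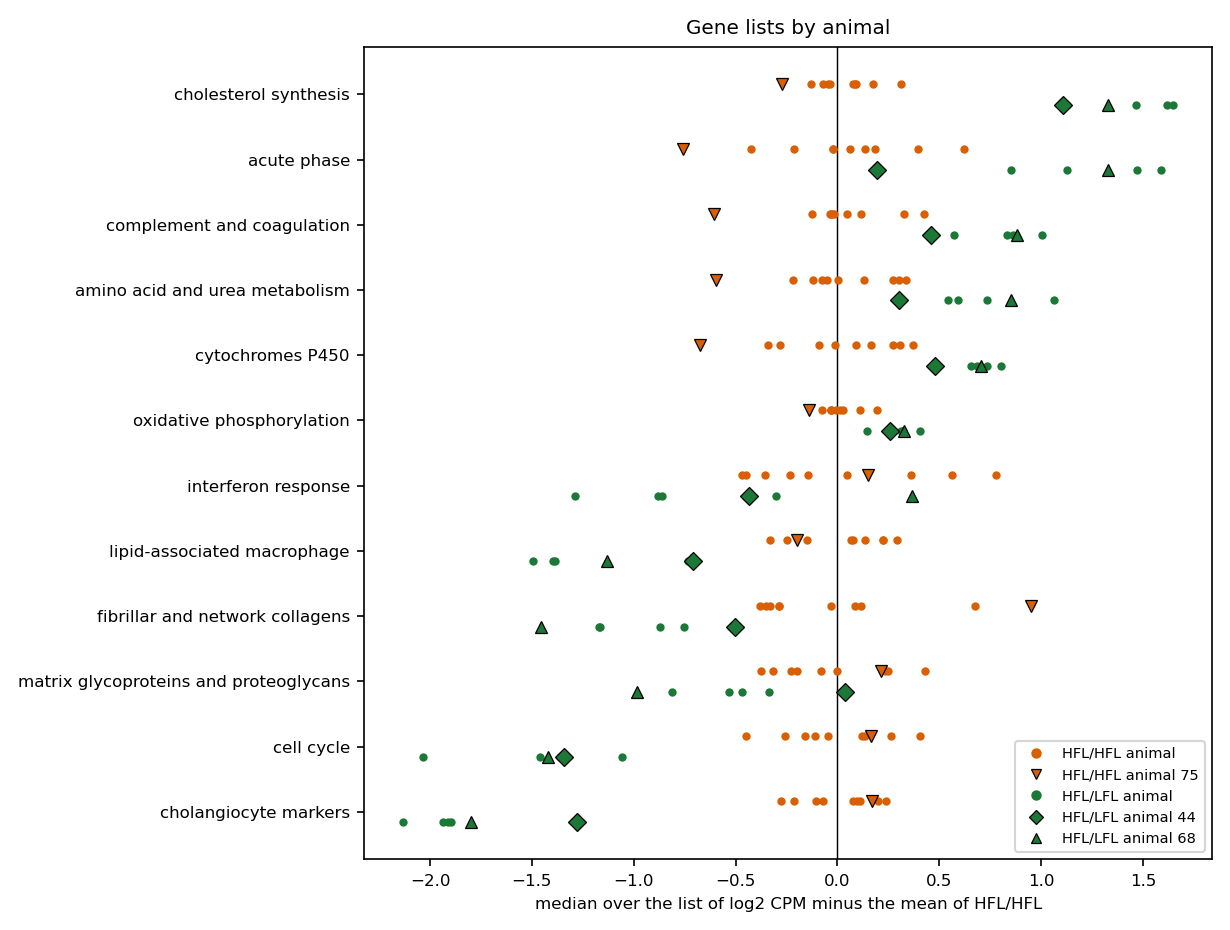
List score (median over members of log2 CPM minus the HFL/HFL mean, x axis) for 12 lists (rows), 1 point per animal of HFL/HFL (n = 10) and HFL/LFL (n = 6), with animal 75 of HFL/HFL and animal 68 of HFL/LFL as triangles and animal 44 of HFL/LFL as a diamond. For cholesterol synthesis the lowest HFL/LFL score is 1.11 and the highest HFL/HFL score 0.31.

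The same feed switch at high vitC, HFL/LFH against HFL/HFH, involved different animals, so its calls could be set beside those at low vitC. There 35.9% of the genes tested changed, 16.5% being higher and 19.4% lower. Of the 1404 genes higher at low vitC, 912 were also higher at high vitC, which is 65% of the first list and 71.3% of the second, and 1 was lower. Of the 1526 lower, 1100 were shared (72.1% and 73.1%) and none was higher. A direct test of whether the switch differed with vitC, the interaction of feed and vitC, called no gene by edgeR (638 genes, 8.23%, at an unadjusted p under 0.05) and none by limma voom (785 at an unadjusted p under 0.05), while DESeq2 called 3 (708). With 6 to 10 animals per group the interval of each such difference is wide, so the test does not show that the switch acted alike at both vitC levels. For SQLE the difference between the switches was -0.55 (95% interval -1.13 to 0.03) and for SC5D -0.38 (95% interval -1.06 to 0.29) on the log2 scale. List medians at low and high vitC were 1.34 and 1.72 for cholesterol synthesis, -1.40 and -1.88 for cell cycle, -1.90 and -2.29 for cholangiocyte markers, and -0.86 and -1.28 for lipid-associated macrophages. The acute phase list stood at 1.08 with 10 of 13 higher at low vitC, and at 0.56 with 3 higher (5 without HFL/LFH animal 43) and 1 lower at high vitC.

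The smallest interaction p belonged to LRG1, which at high vitC ranged from 38.3 to 127 CPM (median 79.5) in HFL/LFH and from 160.1 to 345 CPM (median 231) in HFL/HFH (log2 fold change -1.67 ± 0.37, adjusted p = 0.000326). Its HFL/LFL animals spread from 73 to 769.8 CPM, and the difference between the switches was 2.31 (95% interval 1.37 to 3.25), unadjusted p = 1.94e-05, adjusted p = 0.151. It was called by DESeq2, and by edgeR without HFL/LFL animal 17 (2.48) or animal 44 (2.52). ADAMTS4, an aggrecan-degrading protease, ranged from 0.883 to 5.92 CPM (median 3.2) in HFL/LFH and from 4.54 to 28.8 CPM (median 12) in HFL/HFH (log2 fold change -1.98 ± 0.52, adjusted p = 0.0022), against 0.83 ± 0.43 at low vitC, and was called by DESeq2 alone (difference 2.81 (95% interval 1.498 to 4.13), unadjusted p = 0.000138, adjusted p = 0.233). The third DESeq2 call, MOCS3, an enzyme of molybdenum cofactor synthesis, lay outside the naming rule and was picked out after its value was seen. PLIN2 fell at high vitC (log2 fold change -2.32 ± 0.35, adjusted p = 1.08e-06), where it ranged from 34.9 to 101 CPM (median 56.5) in HFL/LFH and from 140.1 to 571 CPM (median 285) in HFL/HFH, and the difference from low vitC was 1.71 (95% interval 0.83 to 2.59), unadjusted p = 0.000421, adjusted p = 0.233. APCS was at -0.15 ± 0.24 at high vitC, a difference of 1.23 (95% interval 0.60 to 1.85), unadjusted p = 0.000389, adjusted p = 0.233, and ALAS1, the first enzyme of haem synthesis, at 1.35 ± 0.24 there and 0.12 ± 0.21 at low vitC (difference -1.23 (95% interval -1.85 to -0.60), unadjusted p = 0.000391, adjusted p = 0.233). ECE1, endothelin converting enzyme 1, rose at low vitC (0.52 ± 0.10, adjusted p = 4.39e-05) and was at -0.10 ± 0.11 at high vitC (difference 0.62 (95% interval 0.33 to 0.90), unadjusted p = 0.000127, adjusted p = 0.233). None of these differences passed the adjusted threshold by edgeR over all animals.

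**Figure D5:**
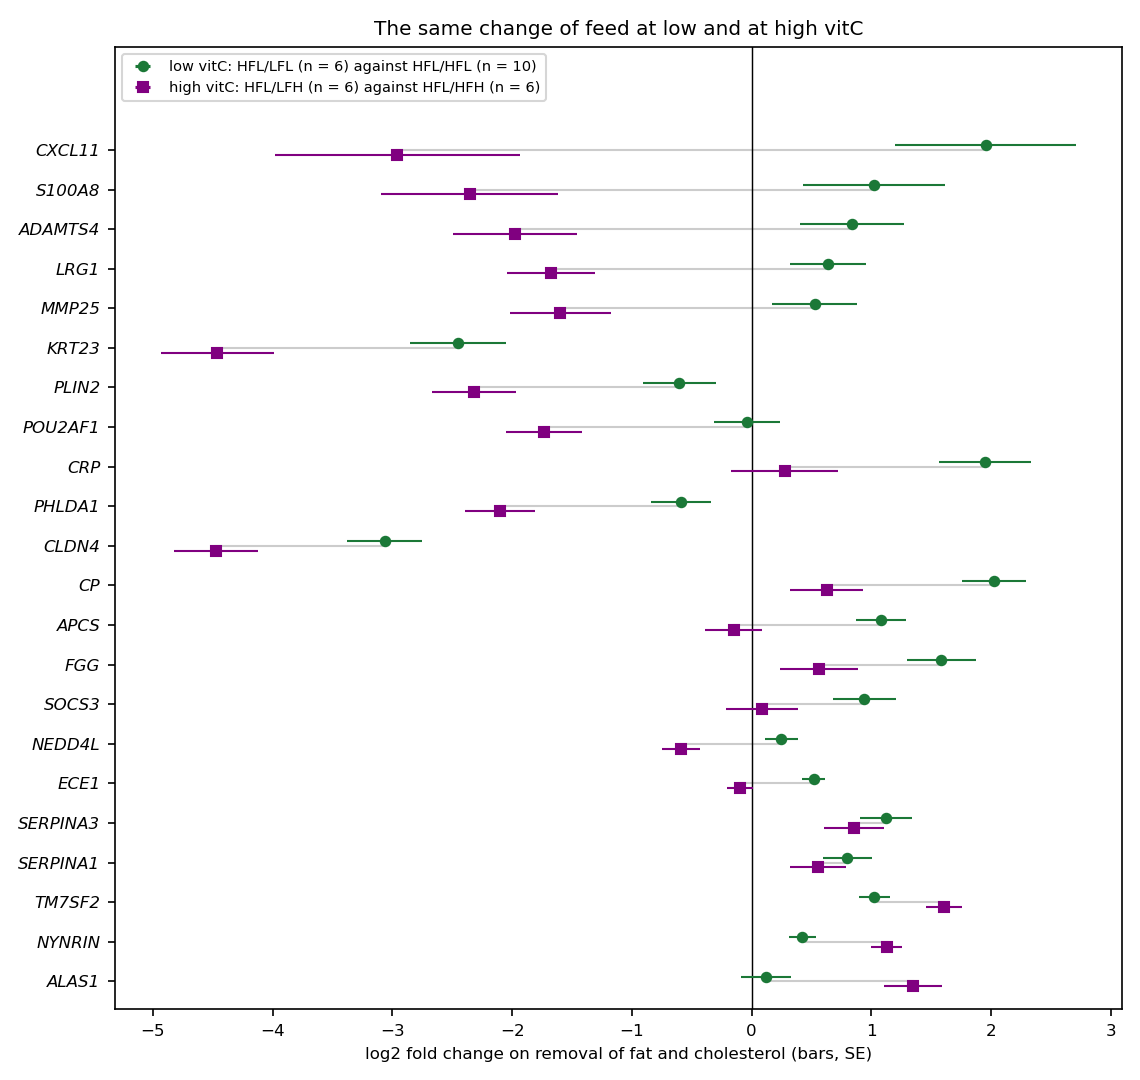
Log2 fold change ± SE of the switch to the low fat feed at low vitC (green circles, HFL/LFL over HFL/HFL, n = 6 and 10) and at high vitC (purple squares, HFL/LFH over HFL/HFH, n = 6 and 6) for 22 genes. The genes include those with the smallest interaction p, so their gaps follow from the choice. No interaction was called by edgeR over all animals. CP lies at 2.02 ± 0.27 and 0.63 ± 0.30 and LRG1 at 0.64 ± 0.31 and -1.67 ± 0.37.

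Animals that had eaten the low fat, high vitC feed throughout, LFH, differed from HFL/LFL in both feeding history and vitC, and the 2 cannot be told apart. The comparison uses the same HFL/LFL animals as the switch itself, so the sets of calls are not independent. It called 613 genes (7.91%), 343 higher (4.43%) and 270 lower (3.48%) in HFL/LFL, but only 277 without HFL/LFL animal 49 and 384 without animal 44. With only the groups compared it called 262, 123 higher and 139 lower, and limma voom called 418, 198 higher and 220 lower, so the larger direction turned with the fit. The lipid-associated macrophage list had 8 of 17 genes above LFH and none below. The cholangiocyte list had 4 of 8 above (2 without HFL/LFL animal 44) and none below (1 without HFL/LFL animal 68). TREM2 ranged from 0 to 0.668 CPM (median 0.0455) in LFH, where 5 of 8 animals were at or under 3 counts (adjusted p = 3.38e-07). LGALS3 ranged from 5.47 to 16.3 CPM (median 9.03) in LFH (log2 fold change 3.21 ± 0.30, adjusted p = 4.05e-10). KRT23 ranged from 0 to 0.335 CPM (median 0) in LFH, where 7 of 8 animals were at or under 3 counts (adjusted p = 7.75e-11). No fold change is given for TREM2, KRT23 and MMP12 against LFH. For TREM2, LGALS3 and KRT23 the HFL/LFL animals thus lay between LFH and HFL/HFL. CTSD (log2 fold change 0.70 ± 0.15, adjusted p = 0.00298), THBS1 (log2 fold change 1.34 ± 0.28, adjusted p = 0.00225), LOXL4 (log2 fold change 0.82 ± 0.19, adjusted p = 0.00496) and S100A8, a calgranulin of neutrophils (log2 fold change 2.67 ± 0.66, adjusted p = 0.00958), were above LFH too, as was MMP12 (adjusted p = 2.09e-06, with 7 of 8 LFH animals at or under 3 counts), although limma voom did not call the latter. Below LFH were GLUL (log2 fold change -1.38 ± 0.22, adjusted p = 9.55e-05), ACSL3 (log2 fold change -1.42 ± 0.29, adjusted p = 0.00205), TM7SF2 (log2 fold change -0.71 ± 0.14, adjusted p = 0.00139), ALAS1 (log2 fold change -0.88 ± 0.22, adjusted p = 0.0114) and PRDX5 (log2 fold change -0.57 ± 0.14, adjusted p = 0.00958). No cell cycle gene was called in either direction, with KIF23 at log2 fold change -0.40 ± 0.32, adjusted p = 0.497. Of the 14 genes of cholesterol synthesis 6 were below LFH and none above, and the 6 became 2 without HFL/LFL animal 44 or 49 and 3 without HFL/LFL animal 53 or LFH animal 25, 46 or 92. SQLE did not pass in this comparison (log2 fold change -0.45 ± 0.21, adjusted p = 0.182). Of the 43 respiratory chain and citric acid cycle genes 10 were below LFH (3 to 12 with 1 animal left out) and none above. Of the 13 acute phase genes 2 were above LFH (1 to 5 with 1 animal left out) and none below. Acute phase list scores ran from 0.54 to 1.19 in LFH (median 0.83) and from 0.19 to 1.59 in HFL/LFL (median 1.23).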

How the data were processed

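Raw counts per gene were deposited by the authors for the livers of 44 guinea pigs, 1 column per animal, and no replicates were pooled. By the submitters' processing notes and the study's methods, reads were demultiplexed with bcl2fastq 2.19, trimmed with Trimmomatic 0.38.0, aligned to the Ensembl guinea pig genome Cavpor3.0 with HISAT2 2.1.0 and quantified with StringTie 2.1.1, and the authors tested them with DESeq2. How StringTie output became whole-number counts is not given in the sources used here. Symbols are those of human orthologues, a numbered suffix (as in CCL2.1) marks a further row of the same symbol, and 964 symbols fall into 363 sets with identical counts in every animal, so that their members cannot be told apart. A second deposited table, a variance-stabilised copy of the counts, was not used.

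Genes with a total count of at least 200 were tested (7750 of 10453 with any count) in edgeR 4.0.16 (R 4.3.3) with its quasi-likelihood test, TMM scaling and a mean for each of the 6 groups, fitted over all 44 animals. The contrasts were HFL/LFL against HFL/HFL, HFL/LFH against HFL/HFH, the difference between those 2 (the interaction) and HFL/LFL against LFH. SE was the log2 fold change divided by the root of the F statistic. Groups came from the diet labels. Animals of a group differed beyond sampling noise, with a chi-square per gene of at least 67.7 over 15 pairs in HFL/LFL and 63.7 over 45 pairs in HFL/HFL. The floor of 3 counts came to 0.0859 to 0.152 CPM and covers counting error only. Identical counts were counted once in a list. The genes named were the defining members of 40 lists, the strongest changes within each list, the largest changes, the smallest interaction p-values and the smallest p-values outside every list, 319 genes in all, and values are given for 212 of them, and some others are not reported here. The lists, the named genes and the comparison were chosen with earlier results of these data known, so no list is independent evidence of its direction. CYP7A1 was not analysed here. The procedure was tested on simulated counts. Alternatives were RLE and upper-quartile scaling, no filter and filterByExpr, only the groups compared, DESeq2 1.42.0, limma 3.58.1 voom with sample quality weights, identical counts taken once, and each animal left out in turn.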

Additional observations from a re-analysis of the deposited data

Results flagged for a closer look

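Each of the 212 genes with values was examined in HFL/LFL and in HFL/HFL for a single animal far from the rest (Dixon's ratio on log2(CPM + 0.5) above its 95% critical value). Of 424 gene and group combinations 35 met that mark, where chance alone gives about 1 group in 20, and genes of the same animal are not independent.

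HFL/HFL animal 75 accounted for 17 of the 35. It was the lowest of its group for the hepatocyte genes BBOX1 (160 CPM, next animal 323), C8A (263, next 416), CP (367, next 715), ECHS1 (396, next 661), ETFB (283, next 349), F9 (331, next 531), LCAT (271, next 428) and PHYH (1027, next 1420), and for MSMO1 (25.2, next 37.2) and RXRA (328, next 435). It was also lowest for ATF4 (358 CPM), CD3E (39.9 CPM), CLDN4 (23.3 CPM), MYD88 (64.1 CPM), SLC23A2 (24.7 CPM) and XCL1 (0.31 CPM), and highest for VLDLR (135 CPM, next 83.2). None of the called changes among these genes was lost without this animal.

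HFL/LFL animal 68 was the highest of its group for the interferon-induced genes CXCL11 (12.5 CPM, next 0.551), IDO1 (220 CPM, next 6.22) and IRF1 (354 CPM, next 115), and for TNF, a cytokine of macrophages (6.48 CPM, next 2.23). HFL/LFL animal 44 was highest for CCL2 (3.45 CPM), GSTP1 (95.6 CPM) and PRDX2 (56.1 CPM), all of them genes that fell with the switch. HFL/LFL animal 17 was highest for ACSL3 (59.3 CPM) and THBS1 (88.2 CPM) and lowest for PECAM1 (128 CPM). HFL/LFL animal 13 was lowest for CCL3 (0.636 CPM) and highest for MMP9 (1.65 CPM).

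The other animals of HFL/HFL that stood apart did so in 1 gene or a pair. Animal 29 was highest for ELOVL2 (13.3 CPM) and EPCAM (224 CPM), animal 90 for IRF1 (270 CPM) and SOCS3 (20.9 CPM), and animal 81 for MMP9 (5.69 CPM). Animal 55 was lowest for TLR4 (1.54 CPM, next 9.82).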

How the results depend on the processing

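The count of genes that changed with the switch at low vitC stayed within 1.5 times of its value under each alternative, from 2767 with identical counts taken once to 3130 by DESeq2, and from 2543 to 3086 over the 16 fits that left out 1 animal. The switch at high vitC gave 2485 to 2951 genes over 12 such fits. Against LFH the count depended on the model and the animals, at 262 (123 higher, 139 lower) with only the groups compared, 418 (198 higher, 220 lower) by limma voom and 277 to 785 over 14 fits that left out 1 animal. The interaction gave 3 genes by DESeq2 and 0 to 1 over 28 fits that left out 1 animal, the 1 being LRG1. The cause of these moves was not tested.

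A reversal was counted only where the gene was called in either fit, so a change of sign in an uncalled gene was not counted. Of the 319 named genes, 2502 of 2551 values under alternatives with all animals kept their side of the threshold without such a reversal, 38 lost the call and 11 gained it. With 1 animal left out 4947 of 5104 did so, 137 lost the call, 18 gained it and 2 reversed, both without HFL/LFL animal 68, namely CXCL11 (-0.77, with a range of -0.77 to 2.27 over the fits that left out 1 animal) and IDO1 (-1.16, with a range of -1.16 to 2.63). Calls of named genes at high vitC and against LFH were lost in 74 of 2327 cases with all animals and in 221 of 3586 with 1 left out. List counts stayed within 1.5 times in 617 of 640 cases with all animals and in 1206 of 1280 with 1 left out. With all animals, the counts beside results of the report that moved further under limma voom were ascorbate genes lower (2 to 4), cholesterol efflux lower (3 to 5), triglyceride synthesis lower (5 to 3), lipid droplet lower (1 to 2), collagens higher (1 to 0), erythroid lower (2 to 0) and neutrophil lower (2 to 1) and higher (0 to 1, also with only the groups compared). ACADL, the 1 oxidation gene lower, and IDO1, the 1 interferon gene higher, were called under neither of these, and DESeq2 gave no adjusted p for IDO1. Metalloproteases higher went from 2 to 1 and T and NK markers higher from 1 to 0 with upper-quartile scaling, the latter also to 0 with no filter and to 2 by DESeq2, with 1 lower where only the groups compared were fitted.

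No paired analysis was possible because each animal carries a number of its own and none was sampled under both feeds. The number of animals, 6 in HFL/LFL, limits the precision. In the text, a gene with 3 counts or fewer in most animals of one group is given no fold change or only a lower bound. The lists are incomplete, since only genes with an orthologue symbol and enough counts were tested.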
